A study of Mus musculus with 21 samples.

Results

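The transcripts of 10 genes that hearts use in the response to stretch and hypertrophy were followed in the left ventricle of 21 male mice: Acta1, Ankrd1, Ankrd23, Fhl1, Fhl2, Xirp1, Xirp2, Nrap, Lmcd1 and Rcan1. They were chosen by name, with earlier results of these data known, from the 55450 Ensembl genes of the deposited table of counts. Each symbol matched 1 row, and 10 of 10 passed the filter on low counts that left 17309 genes for testing. All mice were of strain 129S6/SvEv. Of the wild-type mice, 5 ate control chow (WT-CD) and 5 ate chow with empagliflozin (WT-EMPA), an inhibitor of the renal sodium-glucose cotransporter. Of the R403Q mice, 7 ate control chow (R403Q-CD) and 4 the chow with empagliflozin (R403Q-EMPA). R403Q mice, labelled Myh6+/R404Q, carry 1 copy of a missense change in Myh6, the gene of the α-myosin heavy chain, which serves as a model of hypertrophic cardiomyopathy. The change is in the germ line, so the allele was present in every cell, and each sample was bulk tissue from 1 mouse. The diet held 0.15 mg empagliflozin per g and was started at 9 to 10 weeks of age. The labels give 16 weeks of treatment, whereas the series text speaks of hearts aged 12 weeks and the study's methods place RNA sampling after 2 weeks. The title of each sample ends in a mouse number whose leading digits are shared by several mice, and what they stand for is not given in the sources used here. The 21 mice fall into 7 such number groups, 4 on the control diet, each with both genotypes, and 3 on the empagliflozin diet, of which 2 have both genotypes. None holds both diets, so that diet and number group cannot be told apart.

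Stretch and growth signals are read in the cardiomyocyte at the Z-disc, along the elastic protein titin and at the intercalated disc. Ankrd1 and Ankrd23 encode ankyrin-repeat proteins that bind the titin spring, Fhl1 and Fhl2 encode LIM-domain proteins that also bind titin, and Xirp1, Xirp2 and Nrap encode actin-binding proteins of the intercalated disc and of assembling myofibrils. Acta1 encodes skeletal α-actin, an actin of the fetal heart that returns in hypertrophy, Rcan1 an inhibitor of the phosphatase calcineurin, and Lmcd1 a LIM-domain protein that binds GATA factors. Acta1 is a textbook target of the serum response factor SRF, which binds the CArG box, and Rcan1 of NFAT, the transcription factor that calcineurin activates. MCAT is the element bound by the TEAD factors, and GATA the one bound by GATA4.

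Calls rest on edgeR's quasi-likelihood test over all 4 groups, with a Benjamini-Hochberg adjusted p under 0.05 over the 17309 genes as the threshold. In none of the 8 comparisons did any of the 10 genes pass it. Levels are CPM, counts as a rate over the library total after scaling by the TMM method, and totals ran from 23491535 to 43539684 counts per mouse, so that 3 counts, the floor used here, correspond to 0.0689 to 0.128 CPM. The lowest of the 210 values of the 10 genes was 23.9 CPM, far above the floor. In bulk tissue, fewer cells of a type and less RNA per cell cannot be told apart. R403Q-CD replicate 2 stood apart from the other mice. Its median Spearman correlation with them was 0.968, against 0.986 to 0.992 for the others, it had the lowest sum of the 7 cardiomyocyte markers (44947 CPM, against 65844 to 94500) and the highest sums of 7 atrial markers (11738 CPM, of which Nppa made 10996) and 8 fibroblast markers (6001 CPM). Replicate 5 of the same group came after it in the sums of atrial (3938 CPM, of which Nppa made 3826) and fibroblast markers (3032 CPM). The ventricular light chain Myl2 ran from 6666 to 13577 CPM, whereas the 11 skeletal muscle markers together made 2.41 to 4.33 CPM. The highest sum was in R403Q-CD replicate 2. Tnnt3 was at its highest in that mouse (2.48 CPM), whereas Mylpf (0.476 CPM) and Atp2a1 (0.0207 CPM) were at their lowest there. Tnnt3, Tnni2, Mylpf, Actn3 and Atp2a1 were detected in every mouse, and Myod1 was at 0 in 17 of 21. Marker sums also differed between the genotypes. On empagliflozin all R403Q mice had lower cardiomyocyte sums (71686 to 81048 CPM) than the WT mice (83111 to 94500) and higher macrophage (206 to 260 against 134 to 184) and fibroblast sums (1756 to 2338 against 1076 to 1684). On the control diet these sums overlapped, with medians of 79596 against 87044 CPM for cardiomyocyte, 202 against 166 for macrophage and 1790 against 1272 for fibroblast markers. Endothelial medians were 1580 against 1315 CPM on the control diet and 1772 against 1406 on empagliflozin. Their part in the results below was not tested.

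Sequences before the start sites are printed for 5 of the genes, because they hold the elements named above and because 4 of the 5 had their highest value in 1 mouse while Fhl2 had its lowest there. RefSeq starts could be matched for 9 of the 10 genes, at 13 starts, and the 250 bases before each were searched on both strands. Capitals mark a CArG box or one of the other motifs searched, on either strand, and no match overlapped another. For the MCAT element the letters searched were CATTCC. The core of the NFAT site was searched as GGAAAA. For the GATA element the search used the letters AGATAA. Coordinates are of GRCm38.p6, and each line runs 5′ to 3′ on the strand of the gene.
Acta1, chr8:123894776-123895025, minus strand: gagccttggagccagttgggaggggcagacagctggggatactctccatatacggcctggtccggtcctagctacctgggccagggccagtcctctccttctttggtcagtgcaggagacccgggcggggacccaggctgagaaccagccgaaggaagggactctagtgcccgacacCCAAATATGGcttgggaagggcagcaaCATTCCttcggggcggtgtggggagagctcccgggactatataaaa
Ankrd1, chr19:36119845-36120094, minus strand: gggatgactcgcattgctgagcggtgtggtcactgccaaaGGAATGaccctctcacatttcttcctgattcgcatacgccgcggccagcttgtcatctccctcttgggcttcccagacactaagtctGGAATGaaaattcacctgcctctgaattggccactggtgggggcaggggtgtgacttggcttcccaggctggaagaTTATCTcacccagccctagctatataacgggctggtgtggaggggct
Fhl1, chrX:56779433-56779682, plus strand: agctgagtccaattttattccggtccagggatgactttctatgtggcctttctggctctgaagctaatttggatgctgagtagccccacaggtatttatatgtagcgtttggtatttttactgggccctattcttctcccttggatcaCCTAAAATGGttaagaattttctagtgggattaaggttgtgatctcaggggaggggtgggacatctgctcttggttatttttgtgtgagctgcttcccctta
Fhl2, chr1:43163962-43164211, minus strand: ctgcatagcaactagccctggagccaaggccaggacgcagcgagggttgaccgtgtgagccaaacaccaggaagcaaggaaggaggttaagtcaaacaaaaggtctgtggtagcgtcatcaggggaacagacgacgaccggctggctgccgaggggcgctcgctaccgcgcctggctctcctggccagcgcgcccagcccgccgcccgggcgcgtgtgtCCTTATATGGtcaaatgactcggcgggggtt
Rcan1, chr16:92400079-92400328, minus strand: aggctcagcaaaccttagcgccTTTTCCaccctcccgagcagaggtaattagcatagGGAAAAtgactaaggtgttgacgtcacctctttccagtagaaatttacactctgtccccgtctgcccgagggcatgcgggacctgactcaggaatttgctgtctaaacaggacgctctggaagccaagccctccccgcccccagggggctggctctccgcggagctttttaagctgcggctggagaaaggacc
A CArG box stood at 5 of the 13 starts, in Acta1, Fhl1, Fhl2 and Lmcd1, and at 1.47% of the 32851 starts of the whole table. In Acta1 it lay 73 to 64 bases before the start, with an MCAT element 46 to 41 bases before it. MCAT stood at 3 of 13 starts (Acta1, Ankrd1, Ankrd23) against 12.6% of all starts, GATA at 3 of 13 (Ankrd1, Ankrd23, Fhl2) against 9.99%, and the NFAT core at 3 of 13 (Ankrd23, Rcan1) against 20.4%. These are matches of letters, and binding at them was not measured.

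The genes lie on 8 chromosomes and are protein coding. In the GENCODE M21 annotation of GRCm38, Ankrd1 spans chr19:36111961-36120099 with 2886 exonic bases, Fhl2 chr1:43123074-43196984 with 1897, and Acta1 chr8:123891769-123894751 with 1536. Of the exonic bases of Ankrd23, 78.2% are shared on the same strand with Gm42417, a gene annotated as protein coding, with at most 1 count in any mouse. Pairs within that stretch can belong to either gene, and how the counting assigned them is not given in the sources used here, so the level of Ankrd23 is uncertain. Of the windows of 100 bases in its transcripts, 71.1% occur in Gm42417. For 7 of the genes, Acta1 included, 0 such windows occur in a transcript of another gene, and for Xirp2 and Nrap 0.593% and 2.985% of them do. Lengths and overlaps come from this annotation (Ensembl 96), whereas the authors counted on Ensembl 100.

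Per kilobase of exon, the level in WT-CD hearts was highest for Fhl2, at 868 ± 131 CPM per kb (SD, n = 5), followed by Ankrd1 at 584 ± 119, Nrap at 287 ± 21.3 and Acta1 at 218 ± 77.4. Xirp2 (52.5 ± 6.47), Fhl1 (50.6 ± 2.71) and Xirp1 (39.9 ± 2.44) came next, and Rcan1 (21.04 ± 3.35), Lmcd1 (18.2 ± 1.496) and Ankrd23 (14.2 ± 2.79) were lowest on this scale. Among neighbours in this order, the ranges over the 5 mice overlapped for Nrap and Acta1, Xirp2 and Fhl1, Rcan1 and Lmcd1, and Lmcd1 and Ankrd23, whereas those of the other 5 neighbouring pairs did not. In R403Q-CD hearts the order of the leading pair differed, with Ankrd1 at 1040 ± 637 and Fhl2 at 619 ± 120 CPM per kb (SD, n = 7). Without replicate 2 these levels were 828 ± 333 and 649 ± 98.6 CPM per kb (SD, n = 6).

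**Figure D1:**
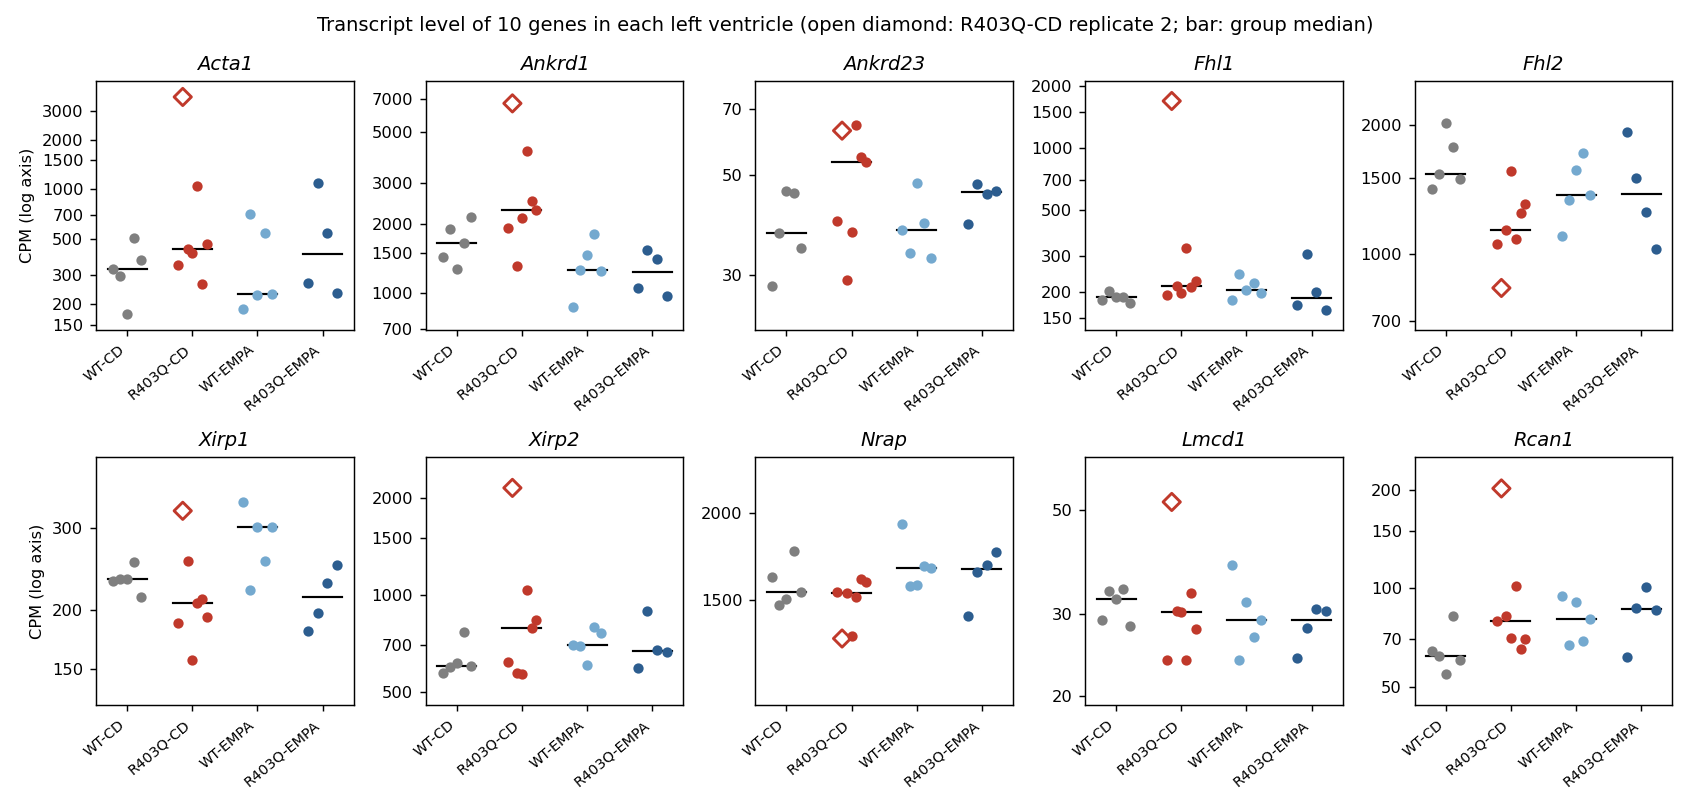
Each panel plots CPM of 1 gene on a log axis, with a point per mouse in the 4 groups and a bar at the group median. The open diamond is R403Q-CD replicate 2, which is the highest of 21 mice for Acta1, Ankrd1, Fhl1, Xirp2, Lmcd1 and Rcan1 and the lowest for Fhl2 and Nrap.

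The first question is whether R403Q hearts differed from wild-type hearts on the control diet. Between R403Q-CD and WT-CD, 7 of the 10 genes had an unadjusted p under 0.05 in edgeR, 6 with the higher level in R403Q-CD (Acta1, Ankrd1, Ankrd23, Fhl1, Xirp2 and Rcan1) and Fhl2 with the lower. Over all tested genes 20.9% had such a p. At the adjusted threshold the count was 0 of 10, against 1.44% of all tested genes, and 0 of 10 genes separated the groups without overlap, against 2.12%. The median log2 fold change of the 10 genes was 0.46, and that of all tested genes 0.01.

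Fhl2 had the smallest p of the 10. Its level was 1415, 1535, 2019, 1775 and 1492 CPM in WT-CD, and ran from 834 to 1558 CPM (median 1136) in the 7 R403Q-CD mice. Of these 7, 6 lay below every WT-CD mouse, and replicate 4 at 1558 CPM lay within their range. The log2 fold change was -0.49 (SE 0.15, adjusted p = 0.0870, edgeR). Within the number groups, R403Q mice had the lower mean in 4 of 4 on the control diet, with log2 differences from -1.08 to -0.30. With the number group as a block in edgeR the log2 fold change was -0.55 (adjusted p = 0.0366, beside 6.52% of all tested genes called), and limma on voom weights, with a random effect of the number group, gave -0.51 (adjusted p = 0.0595). By DESeq2 it was -0.49 (adjusted p = 0.0296). Fhl2 was thus past the threshold in the block fit and in DESeq2, and not in edgeR without the block or in limma. It was the only one of the 10 called in this contrast by DESeq2, which called 6.11% of its tested genes, or 5.83% without replacing outlier counts. Without replicate 2, the mouse with the lowest Fhl2, the value was -0.43 (SE 0.14, adjusted p = 0.129, edgeR).

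Ankrd1, whose protein shuttles between the titin spring and the nucleus, was at 1442, 1901, 1281, 1661 and 2135 CPM in WT-CD and ran from 1314 to 6667 CPM (median 2293) in R403Q-CD. In 4 of the 7 R403Q-CD mice it was above every WT-CD mouse, led by replicates 2 and 5 with 6667 and 4161 CPM. R403Q-CD against WT-CD gave a log2 difference of 0.83 (SE 0.30, adjusted p = 0.127, edgeR). It was higher in R403Q in 4 of 4 number groups on the control diet, by 0.01 to 2.10 on the log2 scale. Without replicate 2 the value was 0.50 (SE 0.22, adjusted p = 0.263), and without replicate 3, the lowest of the group, 0.96 (adjusted p = 0.0438), where 6.02% of all tested genes were called. Ankrd23, the other ankyrin-repeat gene, was at 28.4, 37.1, 46.01, 45.6 and 34.5 CPM in WT-CD and from 29.3 to 64.5 CPM (median 53.2) in R403Q-CD, where 4 of 7 mice lay above the WT-CD range. Its log2 fold change was 0.35 (SE 0.17, adjusted p = 0.232, edgeR).

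The largest log2 fold changes, those of Acta1 and Fhl1, came with the widest spread. Acta1 was at 326, 298, 175, 503 and 370 CPM in WT-CD and from 265 to 3645 CPM (median 430) in R403Q-CD. Replicates 2 and 5 were above the WT-CD range with 3645 and 1042 CPM, and the other 5, from 265 to 461 CPM, were within it. The log2 fold change was 1.496 (SE 0.60, adjusted p = 0.164, edgeR) with all mice and 0.55 (SE 0.42, adjusted p = 0.535) without replicate 2.

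Fhl1 had the same mouse at the top, above a WT-CD group with little spread. It was at 183, 203, 188, 189 and 176 CPM in WT-CD, a coefficient of variation of 5.37%, and from 193 to 1692 CPM (median 213) in R403Q-CD. Replicate 2 was 7.95 times the median of the other 6, replicate 5 was at 327 CPM and the rest were between 193 and 226 CPM, so that 5 of 7 lay above the WT-CD range. With all mice the log2 fold change was 1.22 (SE 0.45, adjusted p = 0.138, edgeR), and 0.28 (SE 0.14, adjusted p = 0.329) without replicate 2. R403Q mice had the higher Fhl1 mean in 4 of 4 number groups on the control diet, by 0.08 to 3.11 on the log2 scale. DESeq2 by default replaced the count of replicate 2 as an outlier and gave a log2 fold change of 0.25 (adjusted p = 0.268). Fhl1 was the only one of the 10 genes with a replaced count.

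Xirp2 and Rcan1 also had replicate 2 highest and replicate 5 next. Xirp2 was at 570, 597, 613, 765 and 599 CPM in WT-CD and from 566 to 2151 CPM (median 791) in R403Q-CD, which put the log2 fold change at 0.58 (SE 0.25, adjusted p = 0.188, edgeR). Rcan1, which rises where calcineurin is active, was at 64.6, 62.2, 54.9, 82.3 and 60.6 CPM in WT-CD and from 65.4 to 202 CPM (median 79.5) in R403Q-CD, and its log2 fold change was 0.56 (SE 0.22, adjusted p = 0.158, edgeR). Without replicate 2 these values were 0.22 (SE 0.14) for Xirp2 and 0.26 (SE 0.13) for Rcan1. With all mice the other 3 genes gave log2 fold changes near 0: Xirp1 -0.08 (SE 0.14), Nrap -0.08 (SE 0.08) and Lmcd1 0.01 (SE 0.15). Without replicate 2 they were -0.21 (SE 0.11) for Xirp1, -0.06 (SE 0.07) for Nrap and -0.16 (SE 0.11) for Lmcd1. Nrap varied least, from 1318 to 1766 CPM over both groups.

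**Figure D2:**
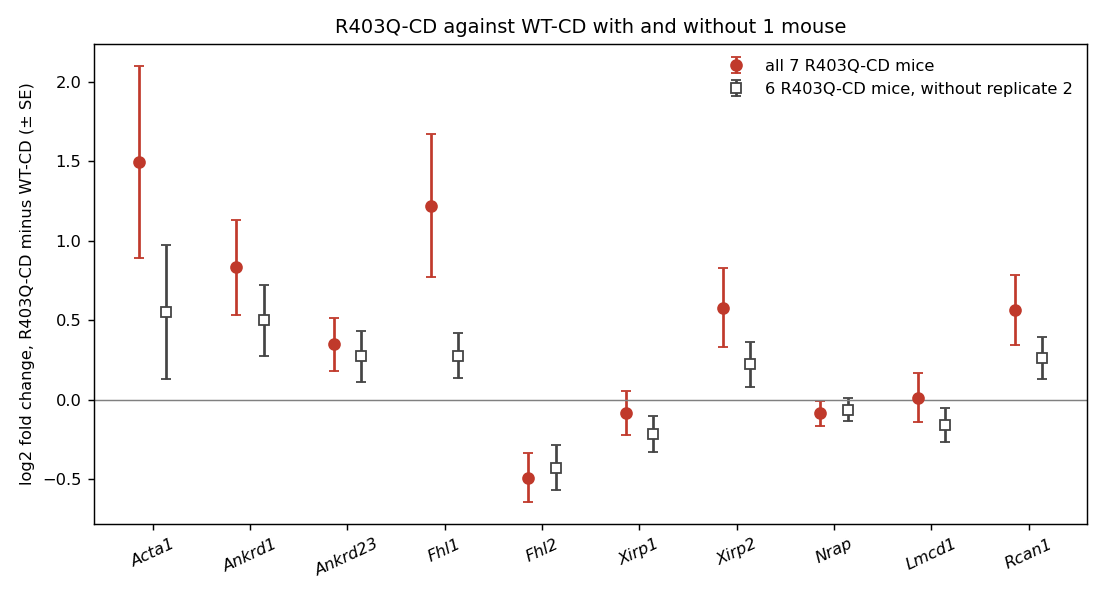
The log2 fold change of each gene in R403Q-CD against WT-CD is plotted with its SE (edgeR), with all 7 R403Q-CD mice (filled circles) and without replicate 2 (open squares). Without that mouse, Acta1 moved from 1.496 to 0.55 and Fhl1 from 1.22 to 0.28, whereas Fhl2 moved from -0.49 to -0.43.

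Without R403Q-CD replicate 2, 2 of the 10 genes, Ankrd1 and Fhl2, kept an unadjusted p under 0.05 in this contrast, against 16.9% of all tested genes in that fit, 0 of 10 passed the adjusted threshold, and 1.41% of all tested genes did. In that mouse the collagen transcript Col1a1 was at 681 CPM, against a median of 66.2 CPM over all mice, and the atrial transcripts Myl7 and Sln were at 180 and 88.4 CPM, against medians of 2.63 and 0.599 CPM. The atrial marker Bmp10 was at 0 in this mouse and at most at 4 counts in any. The atrial marker Nr2f2 was at 20.4 CPM in it (median of all mice 18.2). The fibroblast markers Tcf21 and Pdgfra were at 11.6 CPM (median 10.2) and 79.2 CPM (median 66.4). None of these was at its highest in this mouse, whereas Nppa, Myl4, Dkk3, Col1a2, Col3a1, Dcn, Postn and Lum were. WT-CD replicate 5 had Myl7 at 108 CPM and Sln at 31.2 CPM. Its Acta1 was at 370 CPM, where WT-CD ran from 175 to 503 CPM, and its Fhl1 at 176 CPM was the lowest of WT-CD. The part of atrial or fibroblast transcripts in the level of the 10 genes was not tested.

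Nppa, the atrial natriuretic peptide transcript and the usual marker of ventricular load, passed the threshold in this contrast, at 2.73 on the log2 scale (SE 0.59, adjusted p = 0.0248, edgeR), and without replicate 2 at 1.80 (SE 0.36, adjusted p = 0.0158). Across the 7 R403Q-CD mice, log2 CPM of 5 of the 10 genes was correlated with that of Nppa at an unadjusted exact permutation p under 0.05, and so was that of 25.9% of the other tested genes. Pearson's r was 0.98 for Acta1 (p = 0.00357, exact permutation test, two-sided), 0.92 for Ankrd1, 0.93 for Fhl1, 0.91 for Xirp2 and 0.93 for Rcan1, and adjusted over all genes each had p = 0.139 by this exact test. Spearman's rho of these 5 lay between 0.54 and 0.86, with an unadjusted p of 0.0238 for Acta1 by the same exact permutation test. Without the 2 mice farthest from the Nppa median, replicates 2 and 5, which also shortens the range of Nppa, r of the other 5 mice was 0.55 for Acta1, 0.24 for Ankrd1, -0.03 for Fhl1, -0.17 for Xirp2 and -0.32 for Rcan1. Without replicate 2 alone 1 of the 10 genes had an unadjusted exact permutation p under 0.05 (5.58% of all genes), without replicate 5 alone 2 (13.1%), and without any other single mouse 5 or 6. For Acta1, Ankrd1, Fhl1, Xirp2 and Rcan1, r was lower without both replicates 2 and 5, and it was not tested in the other 5 mice. For Nrap, r was -0.66 in 7 mice (p = 0.0571, exact permutation test) and -0.78 in the other 5. For Fhl2, r was -0.65 in 7 mice (p = 0.125, exact permutation test) and 0.91 in the other 5.

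**Figure D3:**
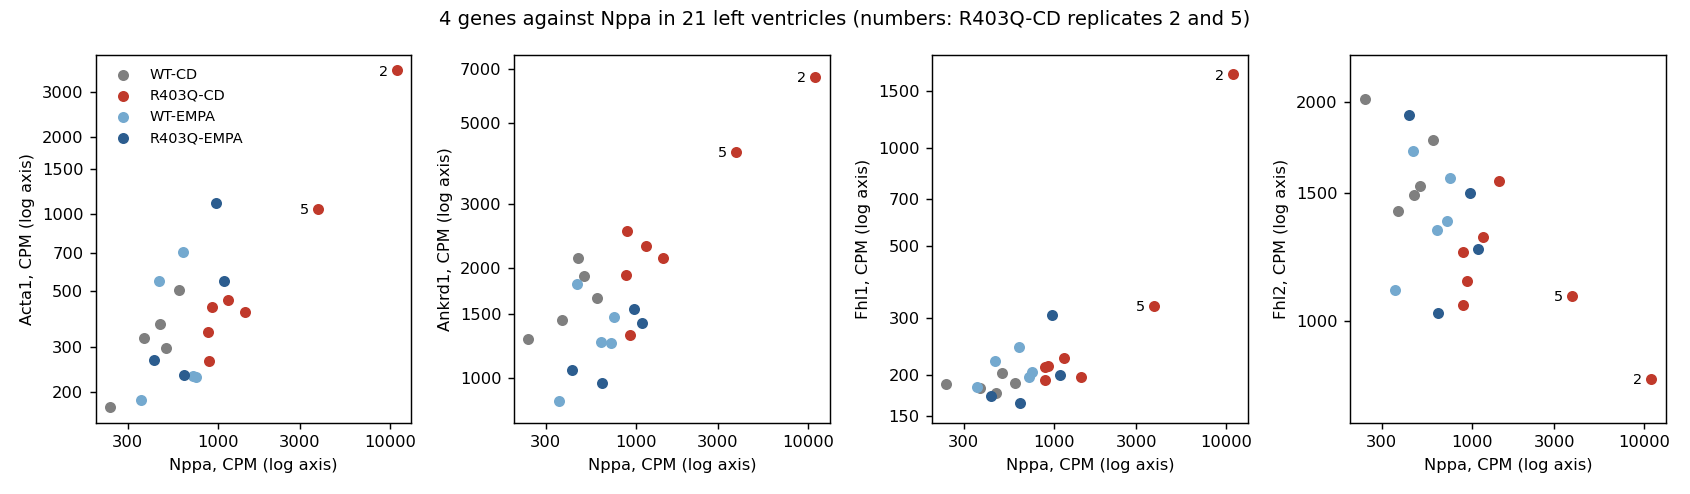
CPM of Acta1, Ankrd1, Fhl1 and Fhl2 is plotted against CPM of Nppa on log axes, with a point per mouse coloured by group. R403Q-CD replicates 2 and 5, marked by number, have the highest Nppa of the 21 mice (10996 and 3826 CPM), and the other R403Q-CD mice lie close to the remaining groups for Acta1 and Fhl1.

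The next question is whether empagliflozin moved these genes in R403Q hearts. Between R403Q-EMPA and R403Q-CD, 0 of 10 genes passed the adjusted threshold, against 0.0116% of all tested genes, and 2 of 10, Ankrd1 and Fhl1, had an unadjusted p under 0.05, both with the lower level on empagliflozin, against 13.4% of all. None of the 10 separated the groups without overlap (1.62% of all tested genes did). DESeq2 called 0 of 10 and 0.937% of its tested genes, with and without the replacement of outliers.

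Ankrd1 was at 1057, 1546, 1413 and 969 CPM in R403Q-EMPA. All R403Q-CD mice but replicate 3 (1314 CPM) lay above this range. The log2 fold change was -1.27 (SE 0.33, adjusted p = 0.141, edgeR), and DESeq2 gave -1.27 with an adjusted p of 0.0561. Without R403Q-CD replicate 2 the value was -0.94 (SE 0.24, adjusted p = 0.127, edgeR). Without that mouse, Ankrd1 was the only one of the 10 with an unadjusted p under 0.05 (11.6% of all), and 0.0175% of all tested genes were called.

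Fhl1 was at 173, 306, 199.95 and 164 CPM in R403Q-EMPA, and its log2 fold change, at -1.05 (SE 0.48, adjusted p = 0.350, edgeR), became -0.12 (SE 0.15) without R403Q-CD replicate 2. Acta1, at 268, 1098, 543 and 234 CPM, overlapped with R403Q-CD, and its log2 fold change went from -0.81 (SE 0.64) to 0.12 (SE 0.44). Fhl2 was at 1919, 1499, 1256 and 1027 CPM, which gave 0.28 on the log2 scale (SE 0.16, adjusted p = 0.463, edgeR), and its range held 6 of the 7 R403Q-CD mice. The remaining 6 genes had log2 fold changes from -0.42 (Xirp2, SE 0.27) to 0.13 (Nrap, SE 0.08). Xirp2 without R403Q-CD replicate 2 was at -0.07 (SE 0.15), and the highest of the 6 was then 0.10 (Rcan1, SE 0.14). R403Q-EMPA replicate 2 was the highest of its group for Acta1, Ankrd1, Ankrd23, Fhl1 and Xirp2.

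**Figure D4:**
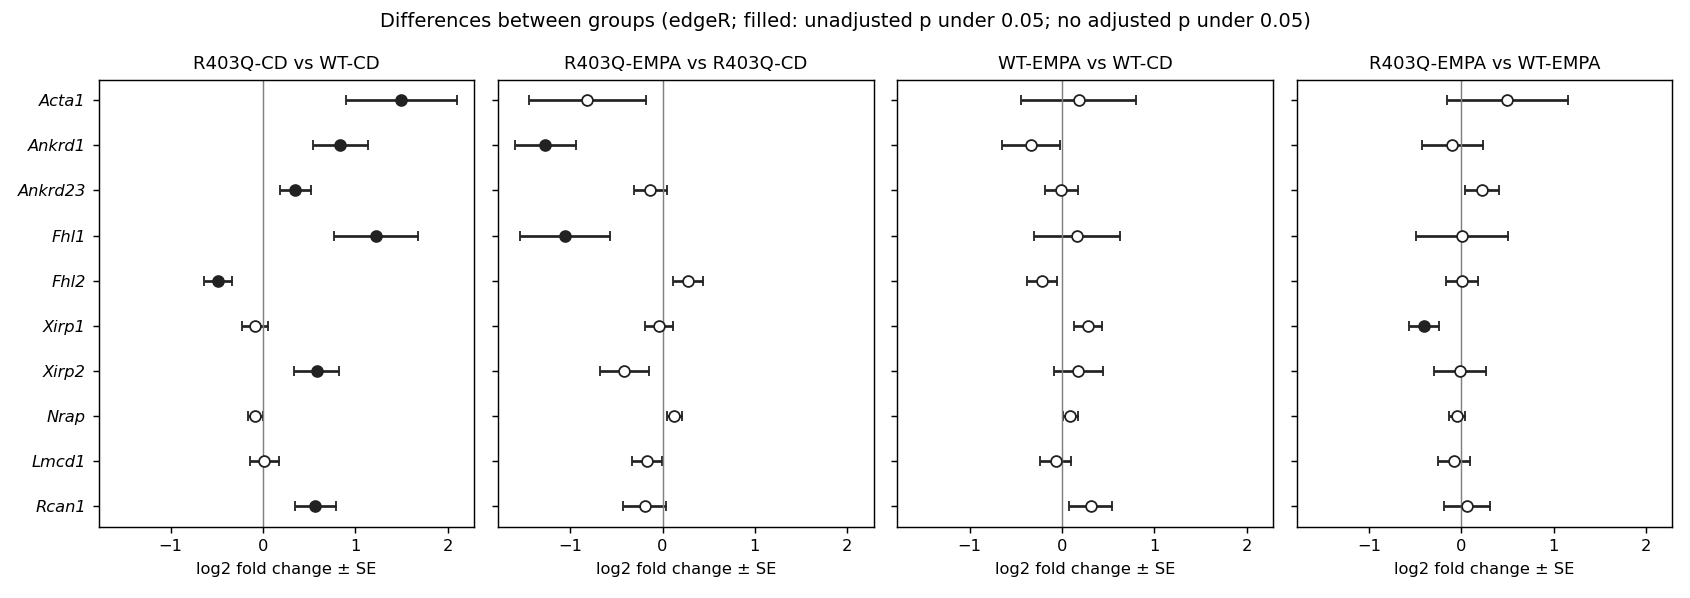
The panels plot log2 fold changes with their SE (edgeR) in 4 comparisons, with filled points where the unadjusted p was under 0.05 and open points elsewhere. The 6 higher genes of R403Q-CD against WT-CD are to the right of 0 in the first panel, with Fhl2 to the left, and Ankrd1 and Fhl1 in R403Q-EMPA against R403Q-CD and Xirp1 in R403Q-EMPA against WT-EMPA are filled to the left of 0.

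In wild-type hearts empagliflozin gave 0 of 10 genes at either threshold, where 0.0289% of all tested genes passed the adjusted threshold and 11% the unadjusted. Ankrd1 was at 870, 1261, 1473, 1807 and 1253 CPM in WT-EMPA, and its log2 fold change against WT-CD was -0.34 (SE 0.31, adjusted p = 0.739, edgeR). Xirp1 was at 340, 221, 301, 254 and 301 CPM in WT-EMPA and at 231, 233, 233, 254 and 214 CPM in WT-CD, a log2 difference of 0.29 (SE 0.15, adjusted p = 0.503, edgeR). The WT-EMPA mice thus reached higher, and the ranges overlapped.

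Between the genotypes on empagliflozin, 0 of 10 genes passed the adjusted threshold (0.0578% of all) and 1 of 10, Xirp1, had an unadjusted p under 0.05 (14.7% of all). Xirp1, which encodes an actin-bundling protein of the intercalated disc, was at 180, 197, 229 and 250 CPM in R403Q-EMPA, a log2 difference of -0.41 against WT-EMPA (SE 0.16, adjusted p = 0.243, edgeR). It was lower in R403Q in both number groups on empagliflozin that held both genotypes. For Fhl2 and Fhl1 this contrast gave 0.0064 (SE 0.18) and 0.0042 (SE 0.50), with Fhl2 at 1102, 1336, 1569.96, 1713 and 1373 CPM in WT-EMPA, all inside the R403Q-EMPA range. Against WT-CD, R403Q-EMPA hearts differed in 0 of 10 genes at either threshold, where 0.971% and 13% of all tested genes passed. The gene with the smallest p there was Rcan1, at 0.37 on the log2 scale (SE 0.25, adjusted p = 0.573, edgeR).

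The interaction asks whether the effect of genotype differed between the diets. In edgeR 0 of 10 genes passed (0% of all tested genes), and 2 of 10, Fhl2 and Ankrd1, had an unadjusted p under 0.05 (3.28% of all). For Fhl2 the R403Q effect was 0.49 higher on the log2 scale on empagliflozin (SE 0.23), and for Ankrd1 it was 0.93 lower, at -0.93 (SE 0.45), with an adjusted p of 0.999 for both (edgeR). These values were, without R403Q-CD replicate 2, 0.42 (SE 0.21) and -0.60 (SE 0.33), and 0 of 10 had an unadjusted p under 0.05. A difference between the diets in the effect of R403Q was thus not called for any of the 10.

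With both diets averaged, R403Q against WT gave 0 of 10 genes at the adjusted threshold, where 10.9% of all tested genes passed, and 3 of 10 at the unadjusted (29% of all). These were Acta1 (0.997, SE 0.44) and Ankrd23 (0.29, SE 0.13) with higher and Xirp1 (-0.25, SE 0.11) with lower levels in R403Q. Without R403Q-CD replicate 2, Acta1 was at 0.52 (SE 0.31) and Ankrd23 at 0.25 (SE 0.12), and neither kept such a p. Also without it, the mouse with the highest Xirp1 of its group at 326 CPM, Xirp1 passed, at -0.31 on the log2 scale (SE 0.09, adjusted p = 0.0211, edgeR), beside 12.6% of all tested genes. Ankrd23 passed without replicate 3, at 0.33 (adjusted p = 0.0429, beside 15.9% of all tested genes), and Xirp1 without the 2 mice over 100 CPM of Myl7, at -0.33 (adjusted p = 0.0213, beside 13.1%). DESeq2 called 0 of 10 and 14.6% of its tested genes.

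With both genotypes averaged, empagliflozin against the control diet gave 0 of 10 genes at the adjusted threshold (2.91% of all) and 1 of 10, Ankrd1, at the unadjusted (20.1% of all). Without R403Q-CD replicate 2, Xirp1 and Rcan1 also had an unadjusted p under 0.05 in edgeR. The share of all tested genes with such a p was not computed for that fit. The log2 fold change of Ankrd1 was -0.80 (SE 0.23, adjusted p = 0.0544, edgeR). DESeq2 called it, with the same log2 fold change of -0.80 and an adjusted p of 0.0427, as the only one of the 10 and among 5.88% of its tested genes. It also passed in edgeR without R403Q-CD replicate 2, at -0.64 (SE 0.17, adjusted p = 0.0341, beside 4.22% of all tested genes). The same held without R403Q-CD replicate 1 (adjusted p = 0.0419, 3.92% of all), without R403Q-CD replicate 3 (0.0207, 5.35%) and without WT-EMPA replicate 4 (0.0483, 2.98%). The sum of 4 erythrocyte markers was higher on empagliflozin, with medians of 1393 against 926 CPM in WT and 1693 against 1109 CPM in R403Q mice, and its part was not tested. Since no number group held both diets, the difference in Ankrd1 cannot be told apart from one between number groups.

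Among themselves, the 10 genes formed 45 pairs, of which 19 had a Pearson's r over 0.5 across the 21 mice after the group means were removed. Without R403Q-CD replicate 2 the number was 12. The median r of the pairs was 0.32 with and 0.14 without that mouse. The share over all pairs of tested genes was not computed. These values thus describe the 10 genes and cannot show whether they are more alike than other genes. The closest pair was Fhl1 and Xirp2 (r = 0.91, and 0.71 without it), followed by Acta1 and Fhl1 (0.84, and 0.82 without it). Over all 17309 genes, those most like Ankrd1 were Pi16 (r = 0.95), Panx1 (0.95) and Cavin3 (0.94). For Fhl1 they were Rtn4 (0.98), Pfkp (0.96) and Msn (0.95), for Fhl2 Bola3 (0.92), Smim11 (0.91) and Sar1b (0.90), and for Rcan1 Lox (0.91), Des (0.91) and Mmp14 (0.91). Those of Acta1 were Plekha3 (0.91), Rab27b (0.88) and Hectd2os (0.87), and those of Xirp2 Hspa1l (0.95), Rtn4 (0.94) and 6430548M08Rik (0.93). Without replicate 2, r stayed at 0.92 for Ankrd1 with Pi16 and 0.90 for Fhl2 with Bola3, and was 0.73 for Rcan1 with Des. Ankrd23 was most like Zfp14 (0.83), Xirp1 like 2310022B05Rik (0.86), Nrap like Fbxo11 (0.85) and Lmcd1 like Wdr6 (0.84).

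The surrounding pathways held 102 tested genes on 6 lists, none of them among the 10. The lists were chosen with earlier results of these data known. The shares of them called, here and below, are thus a description and not an independent test. In R403Q-CD against WT-CD, 2 of the 102 passed (1.96%, against 1.44% of all tested genes), Vgll2 on the list of SRF-MRTF and YAP-TEAD genes and Nppa among the natriuretic and fetal genes. Vgll2, a cofactor of TEAD factors, stood at 2.97 on the log2 scale (SE 0.66, adjusted p = 0.0292, edgeR) from a low level of 0.398 CPM in WT-CD, and its highest value in R403Q-CD was 10.9 CPM, in replicate 5. Without replicate 2, Vgll2 and Nppa passed, as did Capn3 (-1.05) and Itga7 (-0.32), named after their values were seen. On the other lists the smallest p belonged to Capn3 (-0.89, adjusted p = 0.0514), a protease bound to titin, Pdlim3 (0.40, 0.0629), Tjp1 (-0.23, 0.0671) and Mef2a (-0.23, 0.0629, edgeR). The median log2 fold change was -0.21 over the 8 tested genes of the titin spring list, 0.14 over the 15 LIM genes, -0.16 over the 23 Z-disc, costamere and intercalated disc genes and -0.06 over the 26 genes of the calcineurin-NFAT-GATA list. It was 0.05 over the 22 SRF-MRTF and YAP-TEAD genes and 0.69 over the 9 natriuretic and fetal genes.

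In R403Q-EMPA against R403Q-CD, WT-EMPA against WT-CD, R403Q-EMPA against WT-EMPA and the interaction, 0 of the 102 passed. In the first of these, the smallest p on each list belonged to Tcap (-0.55), Pdlim3 (-0.36), Ilk (-0.29), Mef2d (0.33), Tagln (-1.30) and Nppa (-1.88), with adjusted p from 0.162 to 0.251 (edgeR). In R403Q-EMPA against WT-CD, 2 of 102 (1.96%, against 0.971% of all) passed, both lower: Tcap (-0.78, adjusted p = 0.0429) and Vcl (-0.41, adjusted p = 0.0326, edgeR). With both diets averaged, 30 of 102 (29.4%, against 10.9% of all) passed for R403Q against WT, 7 higher and 23 lower. Without R403Q-CD replicate 2, 7 were higher and 24 lower of 101. The lower ones included Capn3 (-0.86), Vcl (-0.25), the vinculin gene, Tead1 (-0.32) and Ppp3cb (-0.16), a catalytic subunit of calcineurin, and the higher ones Csrp3 (0.26), the muscle LIM protein, Myot (0.61) and Wwtr1 (0.18). Of the Z-disc, costamere and intercalated disc list, the compartment of Xirp1, Xirp2 and Nrap, 1 of 23 was higher and 7 were lower, beside the lower cardiomyocyte and higher macrophage and fibroblast sums of R403Q hearts given above, whose part was not tested. For empagliflozin averaged over the genotypes 8 of 102 (7.84%, against 2.91% of all) passed, 4 higher and 4 lower. They included Tcap (-0.59), the titin cap, Csrp2 (-0.81), Ilk (-0.24), Myoz2 (-0.20), which binds calcineurin at the Z-disc, Mef2d (0.33) and Myh7 (0.53).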

How the data were processed

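Poly(A)-selected left ventricular RNA (NEBNext Ultra II) was sequenced as read pairs, aligned by the authors to mm10 with STAR 2.6.0c and counted with featureCounts (Subread 1.6.2) on Ensembl build 100, from uniquely aligned proper pairs and without mitochondrial genes. The deposited counts are whole read pairs per gene and mouse. The deposited log2 values are the authors' variance-stabilizing transformation of them (DESeq2 1.32.0) and entered an alternative only.

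Counts were tested in R 4.3.3 with edgeR 4.0.16: filterByExpr with a minimum count of 10, TMM scaling and 1 quasi-likelihood fit over the 4 groups with 8 contrasts, each adjusted over all 17309 tested genes. For correlations, 2 counts were added as prior before taking log2 CPM. Totals had a median of 33329649 counts, and floors cover counting error only. Each SE from edgeR was derived from the log2 fold change and the F statistic of its test, and includes the spread between mice. Groups came from the labels, replicates are separate mice numbered in accession order, and the closest pair of mice had a Spearman correlation of 0.994. The 10 genes and all lists were chosen with earlier results of these data known. Of the lists, genes were named where they passed the threshold (at most 3 per list and contrast, by p) or had the smallest p, with the 3 genes most like each of the 10, and Myot was picked after its values were seen. Ankrd2 fell below the filter. The fit was tested on simulated data. Alternatives were DESeq2 1.42.0, no filter on low counts, scaling by library size only, limma 3.58.1 fitted to the deposited values, 2 or 3 groups, the title's number group as a block or random effect and leaving out each mouse. DESeq2 without outlier replacement and leaving out 2 mice over 100 CPM of Myl7 were added after seeing the data. Sequences are from RefSeq (GRCm38.p6), and amino acid sequences were not used here.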

Additional observations from a re-analysis of the deposited data

Results flagged for a closer look

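In each of the 10 genes and 4 groups, the highest and lowest mouse were compared with the rest by Dixon's criterion at the 95% level, which chance alone meets in about 1 in 20 sets. Of 40 sets, 6 met it, and 5 of the 6 were 1 mouse, R403Q-CD replicate 2. It lay far above the other R403Q-CD mice for Acta1 (3644.62 CPM), Fhl1 (1692.41 CPM), Xirp2 (2150.8 CPM), Lmcd1 (52.1355 CPM) and Rcan1 (202.126 CPM). Lmcd1, which binds GATA6, had its group median at 30.3 CPM, and its log2 fold change in R403Q-CD against WT-CD was 0.01 with this mouse and -0.16 without it. Ankrd1 of the same mouse was the highest of 21 but was not marked, since replicate 5 stood close enough in the range. The remaining set was Xirp2 in WT-CD, with replicate 4 highest at 764.842 CPM and the next WT-CD mouse at 613 CPM.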

How the results depend on the processing

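For the log2 fold changes with an unadjusted p under 0.05, the alternatives gave 362 values that did not pass the adjusted threshold and 12 that did, with 0 changes of sign. Since 0 of 10 genes passed it in the main fit, no call could be lost, and this tally does not cover the unadjusted p. In R403Q-CD against WT-CD, 7 of 10 genes had an unadjusted p under 0.05 in edgeR with all mice and 2 without replicate 2. Log2 fold changes without an unadjusted p under 0.05 did change sign in places when R403Q-CD replicate 2 was left out. In R403Q-EMPA against R403Q-CD these included Acta1 (-0.81 to 0.12), Rcan1 (-0.19 to 0.10) and Xirp1 (-0.04 to 0.08). In R403Q-CD against WT-CD, Lmcd1 went from 0.01 to -0.16. Of the 10 genes, 1 instead of 0 passed in R403Q-CD against WT-CD by DESeq2, with the number group as a block and by DESeq2 without outlier replacement (Fhl2 each time), and 0 to 1 when single mice were left out. For R403Q against WT averaged over diets the count was 0 to 1 when single mice were left out, and 1 (Xirp1, -0.33) without the 2 mice high in Myl7. For empagliflozin averaged over genotypes it was 1 by DESeq2 and 0 to 1 with single mice left out (Ankrd1 in each). The cause was not tested. The count of genes correlated with Nppa at an exact permutation p adjusted over the 10 relations, 5 in all mice, ranged from 0 to 6 when single mice were left out, and was 0 without replicate 1, 2, 5 or 7, while at an unadjusted p it stayed at 5 without replicate 1 or 7. With 4 to 7 mice a group and the spread of R403Q-CD, log2 fold changes of Acta1 between single groups carried an SE of 0.60 to 0.66. Replicate numbers follow accession order and pair no mice. The number group as a block is the matched analysis, and beside Fhl2 it changed 0 calls of the 10 genes.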
